A study of Mus musculus with 185 samples.

Results

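The hypothalamus was compared between 4 mice on a high-fat diet (HFD) and 5 mice on chow, as 1 of 5 brain regions sequenced from each mouse of a 16 h feeding study. The deposited matrix of read counts names the mouse of a column but not its region, so the hypothalamus was found through 6 genes of that region. These were Avp and Oxt, which encode the hormones vasopressin and oxytocin, and the transcription factors Nkx2-1, Six6, Rax and Fezf1. Within a mouse, among columns with at least 1000000 counts, the column with the highest mean of log2(CPM + 1) over the 6 genes was taken if it stood at least 1 above the next column, where CPM is the count per 1000000 counts of the column. The rule gave 9 columns, out of 60 columns of the HFD and chow mice and 185 columns in the series. The columns were thus chosen by the measured levels of these 6 genes, so these genes were left out of every test.

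All mice were male C57BL/6J, an inbred strain, 8 weeks old, with no transgene or deletion in any group, and they were housed 2 per cage with 3 cages and 6 mice per diet. The chow group kept its standard diet, the HFD group was given a purified high-fat diet in its place, and another group was fasted, all for 16 h that included the night. The hypothalamus was cut out in one piece and extracted as bulk tissue, so no cell type was sorted and the edges of the piece may differ between mice. Fasted mice gave 6 further columns by the same rule, which entered the fit to share its estimate of the spread between mice. The hypothalamus library of fasted mouse 12 carries a failed STAR mark in the labels. The column that the rule took from this mouse held 14026495 counts and stood apart from the rest. Its marker mean was 2.98, against 4.06 to 4.72 in the other 5 fasted columns. Its summed level of 18 further hypothalamus genes was 1182 CPM, against 1915 to 2684 CPM. Another column of mouse 12, with 121967 counts, was under the minimum and had a marker mean of 2.16. In the 16 h study, both the failed STAR marks and the columns under the minimum fell in mice 4, 10, 11 and 12. The column taken may thus come from another region, which was not tested.

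Agrp and Npy neurons of the arcuate nucleus drive feeding, and their neighbours that make Pomc and Cartpt restrain it. Leptin, insulin and gut hormones act on receptors of these and other hypothalamic neurons, and downstream nuclei answer through peptides such as Crh and Trh in the paraventricular nucleus and Hcrt and Pmch in the lateral hypothalamus. Fat-rich food is known from longer feeding to affect inflammatory genes, chaperones of the endoplasmic reticulum (ER) and lipid genes in this tissue.

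The 9 columns were set apart by a wide margin. The marker mean was 4.18 to 4.66 in the 5 chow columns and 4.48 to 4.75 in the 4 HFD columns, against 0.0752 to 0.396 in 35 other columns of the same mice. The smallest gap among these 9 mice was 3.80, in chow mouse 2. No column could be taken from 3 mice. In chow mouse 5, 2 columns were high in the markers, at 4.76 and 4.44. In HFD mouse 16, 2 columns were high as well, at 4.83 and 4.35. These gaps were 0.323 and 0.475. In HFD mouse 13, whose hypothalamus library is marked in the labels as failing a principal component check, the highest column stood at 0.554, 0.166 above the next. Which of the paired columns in mice 5 and 16 belongs to that mouse's hypothalamus is not settled by the marker levels, and the order of the columns was not examined. Both mice were left out of the main comparison and are described with it further on.

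**Figure D1:**
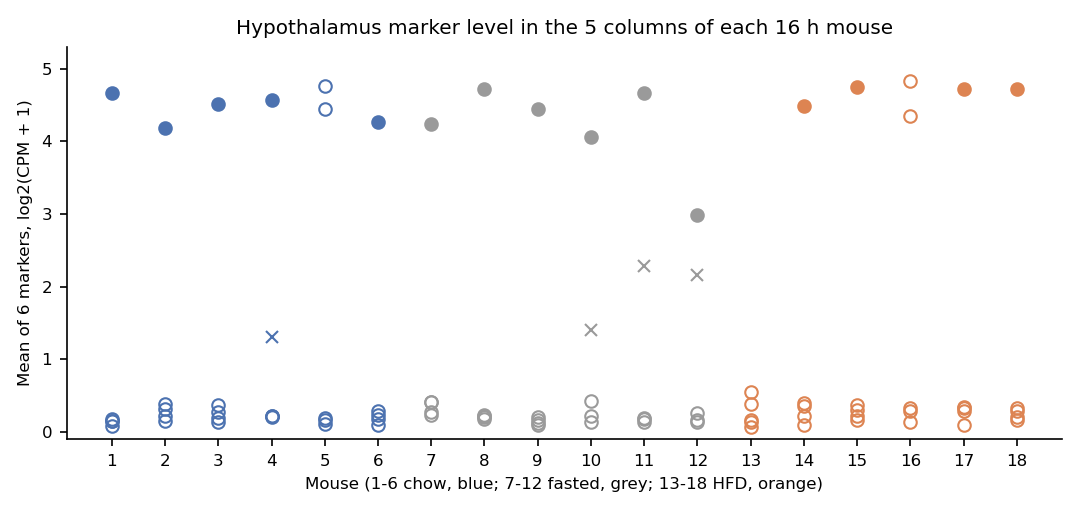
Mean log2(CPM + 1) of the 6 marker genes in each of the 5 columns of the 18 mice of the 16 h study, by mouse number. Filled circles are the columns taken as hypothalamus, open circles are the other columns with at least 1000000 counts, and crosses are columns under that number. Mice 5 and 16 each have 2 high columns and mouse 13 has none.

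Markers that the rule did not use were measured as well. All 18 further hypothalamus genes on a list, among them Hcrt, Pmch, Agrp, Pomc and Trh, had counts in every one of the 9 columns. Counts alone do not mark the region. The highest column of HFD mouse 13, not taken by the rule, also held Hcrt, Pmch, Agrp and Pomc, at 0.469 to 2.58 CPM. The summed level of the 18 genes, in CPM of each column's total as for all marker sums, was 2345 to 2700.0 CPM in chow and 2651 to 2905 CPM in HFD columns. It was 633 CPM in that column of mouse 13. Depth was 12707072 to 45657731 counts per chow column and 14038724 to 19278033 counts per HFD column. Across 23 library measures (summed levels of 21 marker lists, the mitochondrial share of counts and the RNA concentration), the lowest two-sided exact permutation p between the diets was 0.0794 (0.903 after Benjamini-Hochberg adjustment), and 5 against 4 mice cannot go below 0.0159. By time of euthanasia, the cages were grouped here into 3 rounds, each with chow, fasted and HFD mice. The methods of the study do not name such rounds. Within each round every HFD mouse followed the chow mice, by at least 25 to 45 min. Diet and this order cannot be told apart. Cages of 2 mice ate 7.2, 7.3 and 8.2 g of chow or 4.9, 5.6 and 5.7 g of the high-fat diet. These are weights, and the study reports that the high-fat diet holds more energy per gram and that more energy was eaten on it. Body weight rose by a mean of 0.47 g (SD 0.59, n = 6) on chow and 0.083 g (SD 0.27, n = 6) on HFD.

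No gene passed the adjusted test between HFD and chow in the hypothalamus. Over 23272 genes, edgeR's quasi-likelihood test with Benjamini-Hochberg adjustment called 0 genes at an adjusted p under 0.05, 0% of those tested, and the lowest adjusted p was 0.999. DESeq2 called 0 genes as well, and so did limma voom with quality weights. Without adjustment, 874 genes (3.76%) had p under 0.05 in edgeR, of which 435 (1.87%) were higher and 439 (1.89%) were lower on HFD. DESeq2 gave 999 of 34218 genes tested and limma voom 1203 of 23272. The edgeR number depended on the fasted columns. It was 1227 of 23066 genes without fasted mice 10 and 12, and 1323 of 22503 with only the chow and HFD columns in the edgeR fit, while the number of called genes was 0 in both. The 4 HFD columns all stood above the 5 chow columns in 257 genes (1.10%) and all below in 220 genes (0.945%). The median gene had a log2 fold change (HFD minus chow) of 0.0017, and the median standard error (SE) of these fold changes was 0.12. A 95% interval that lay wholly within a 1.5-fold change either way was found for 70.9% of the genes, and one within a 2-fold change for 92.3%. The genes below are therefore given by their values, and none of them passed the adjusted test, with adjusted p of 0.999 in edgeR for each. Values are CPM with TMM library sizes, log2 fold changes are HFD minus chow with their SE, and the order of mice is 1, 2, 3, 4 and 6 for chow and 14, 15, 17 and 18 for HFD.

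**Figure D2:**
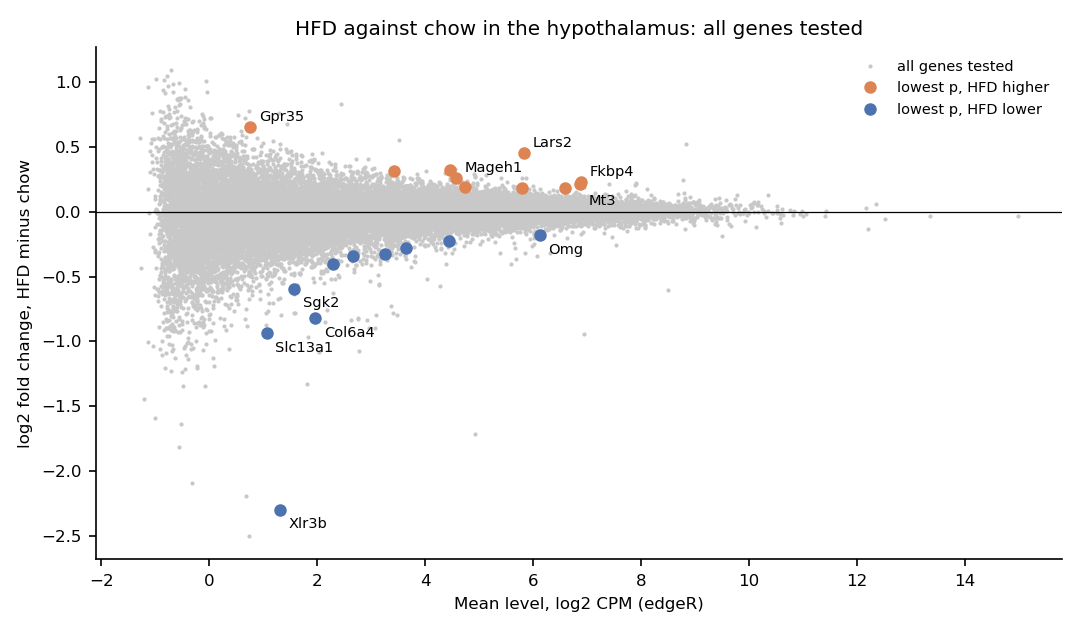
The log2 fold change (HFD minus chow) of each of 23272 genes tested in the hypothalamus against its mean log2 CPM. Orange and blue points are the 10 genes of lowest p in each direction whose mean log2 CPM was at least 0, none of which passed the adjusted test. The cloud is centred at 0 and widens at low levels.

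Fkbp4, which encodes a cochaperone of Hsp90 that assists steroid hormone receptors, was among the genes of lowest p with higher values on HFD. It lies on chr6:128406698-128415665 (GRCm39) and was measured at 116, 122, 125, 115 and 107 CPM in the chow columns and at 130.3, 139, 127 and 152 CPM in the HFD columns. The groups did not overlap, with HFD mouse 18 the highest, and the log2 fold change was 0.23 (SE 0.06, edgeR p = 0.000807). In the 3 rounds the difference was 0.13, 0.22 and 0.37. Mageh1, a member of the melanoma antigen family (chrX:151819162-151822096), had the lowest p of all named genes. Chow columns held 21.9, 22.7, 22.00, 22.2 and 21.5 CPM of it and HFD columns 25.98, 29.3, 24.1 and 26.1 CPM. Every HFD value exceeded every chow value, and the chow values were close to each other (log2 fold change 0.26, SE 0.06, edgeR p = 0.000614). Mt3, a metallothionein of the brain that binds zinc and copper (chr8:94879220-94881088), was at 110.0, 111, 109.9, 113 and 101 CPM on chow and at 112, 132, 133 and 129 CPM on HFD. HFD mouse 14 lay within the chow range and the other 3 above it (log2 fold change 0.21, SE 0.05, edgeR p = 0.000695).

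Of the other genes with higher values, Hibadh encodes a mitochondrial enzyme of valine breakdown and was at 51.6, 55.2, 53.5, 49.9 and 49.5 CPM on chow and 59.2, 61.1, 56.1 and 59.3 CPM on HFD, with no overlap (log2 fold change 0.18, SE 0.04). Lars2, the mitochondrial leucyl-tRNA synthetase (chr9:123195952-123291731), was at 53.1, 37.9, 43.3, 55.5 and 51.02 CPM on chow and 67.4, 72.2, 54.7 and 66.02 CPM on HFD. The lowest HFD column, from mouse 17, lay just under the highest chow column, from mouse 4 (log2 fold change 0.45, SE 0.13, edgeR p = 0.00226). Ndufa2, a subunit of respiratory complex I, ranged over 17.9 to 21.6 CPM on chow and 21.5 to 26.2 CPM on HFD, so the groups overlapped slightly. Gpr35, a receptor coupled to G proteins, was low in both groups, at 1.44, 1.44, 1.18, 1.49 and 1.02 CPM on chow and 1.80, 2.06, 2.42 and 2.04 CPM on HFD. Its log2 fold change of 0.65 (SE 0.18) was the largest of the 10 genes with higher values. The remaining members of that set were the translation repressor Eif4ebp2 (0.18), the RNA-binding gene Rbm45 (0.19) and the spliceosome gene Lsm4 (0.31), each with no overlap between the groups.

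Among the genes of lowest p with lower values on HFD, Sgk2 led. It encodes a kinase related to the serum- and glucocorticoid-regulated kinase and lies on chr2:162829250-162856060. Chow columns held 3.70, 3.27, 3.11, 2.85 and 3.45 CPM and HFD columns 2.23, 1.79, 2.42 and 2.25 CPM, and the groups did not overlap (log2 fold change -0.59, SE 0.16, edgeR p = 0.00115). Col6a4, a chain of type VI collagen (chr9:105866653-105973990), was at 4.01, 5.29, 6.31, 5.17 and 4.15 CPM on chow and 3.10, 2.11, 3.51 and 2.81 CPM on HFD, again with no overlap (log2 fold change -0.82, SE 0.24). Omg encodes a myelin glycoprotein of oligodendrocytes and neurons and was measured at 67.8 to 70.8 CPM in the 5 chow columns and at 66.7, 63.5, 58.8 and 56.5 CPM in the HFD columns. All HFD columns were below the narrow chow range, and the log2 fold change was -0.18 (SE 0.05). Omg lies on chr11:79390592-79394915, inside Nf1 on the opposite strand, and the strand used for counting is not given in the sources used here. Primpol, a primase of the DNA damage response, gave 6.58, 6.27, 6.31, 6.60 and 6.66 CPM on chow and 6.01, 4.70, 4.85 and 4.86 CPM on HFD. HFD mouse 14 sat just under the chow columns and the other 3 well below them (log2 fold change -0.34, SE 0.10).

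Slc13a1, a sulfate transporter, ranged over 1.27 to 2.90 CPM on chow and 0.830 to 1.49 CPM on HFD, and the groups overlapped in HFD mouse 14. Xlr3b had the largest difference of these genes (-2.29, SE 0.67), at 1.34, 3.46, 5.19, 1.31 and 1.88 CPM on chow and 1.61, 0.211, 0.319 and 0.141 CPM on HFD. Its reads are uncertain, since Xlr3b has near-identical copies on the X chromosome, and HFD mouse 14 was within the chow range. Of the others, the microglial gene Pld4 had a log2 fold change of -0.40, the cytokine signalling factor Stat6 one of -0.32, the zinc finger gene Zfp33b one of -0.22 and Nrg3os, which is antisense to Nrg3, one of -0.28. The library kit was directional, but which strand was counted is not given, so Nrg3os cannot be told apart from Nrg3 here. In 18 of the 79 genes named by rule, 20 of which were taken for their low p, the diets did not overlap. With the higher-marker columns of chow mouse 5 and HFD mouse 16 added, this held for 6 of the 18 (Fkbp4, Eif4ebp2, Sgk2, Omg, Nrg3os and Zfp33b), and with both columns of each mouse for 5 of them, all but Zfp33b. Mageh1, Hibadh, Gpr35, Rbm45, Lsm4, Primpol, Col6a4, Pld4, Crh, Glp1r, Relb and Daglb then overlapped. The mouse and diet of 1 column in each pair are uncertain. Among all genes tested, 2.05% did not overlap in the 9 columns.

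Agrp and Npy had somewhat higher means on HFD, with overlap between the diets. Agrp, made by neurons that promote feeding, was at 10.1, 6.77, 7.48, 6.66 and 6.04 CPM on chow and at 6.26, 10.1, 10.2 and 10.8 CPM on HFD. HFD mice 15, 17 and 18 resembled chow mouse 1, and HFD mouse 14 resembled the other chow mice (log2 fold change 0.33, SE 0.24, edgeR p = 0.183). Npy, made by the same neurons and by others, was at 8.85, 6.38, 7.84, 7.55 and 7.68 CPM on chow and 7.32, 10.8, 7.34 and 13.02 CPM on HFD. HFD mice 15 and 18 exceeded the chow range and HFD mice 14 and 17 did not reach the chow median, so the log2 fold change of 0.34 (SE 0.26) was not separated from 0. The Agrp interval of the annotation overlaps other genes, so a share of its counts may be theirs. Fewer cells of a type and less RNA per cell cannot be told apart in this bulk tissue.

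Pomc, the precursor of the satiety peptide alpha-MSH, was at 27.2, 39.1, 40.97, 38.7 and 38.6 CPM on chow and 35.8, 52.8, 36.2 and 55.5 CPM on HFD. HFD mice 15 and 18 were the highest of the 9 and chow mouse 1 was the lowest (log2 fold change 0.29, SE 0.31, edgeR p = 0.368). Cartpt, which is made with Pomc and elsewhere in the hypothalamus, ranged over 35.9 to 44.4 CPM on chow and 39.4 to 46.02 CPM on HFD. Both pairs of opposing peptides thus had fold changes of the same sign, from 0.12 for Cartpt to 0.34 for Npy. Per kilobase of exon, mean chow levels were 108 CPM for Hcrt, 66.5 for Pmch, 27.9 for Pomc, 6.51 for Agrp and 4.23 for Npy.

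Crh was the 1 feeding peptide of 25 tested with an unadjusted p under 0.05, against 3.76% of all genes. It encodes corticotropin-releasing hormone, which starts the pituitary-adrenal stress response and lowers food intake, and lies on chr3:19747565-19749655. Its level was low, at 0.926, 1.37, 1.06, 1.25 and 1.10 CPM in the chow columns and 2.29, 1.43, 1.47 and 1.48 CPM in the HFD columns. All HFD columns exceeded all chow columns, but 3 of the 4 did so narrowly and HFD mouse 14 stood apart (log2 fold change 0.52, SE 0.25, edgeR p = 0.0461). With the higher columns of mice 5 and 16 added, the groups overlapped, at 0.775 to 1.37 CPM on chow and 1.13 to 2.29 CPM on HFD. Trh, which controls the thyroid axis, varied about 2-fold within each diet, at 31.98 to 63.2 CPM on chow and 35.5 to 66.3 CPM on HFD. Hcrt, the orexin gene of wakefulness and feeding, was at 97.6, 106, 66.4, 87.3 and 48.8 CPM on chow and 115, 64.3, 99.03 and 56.03 CPM on HFD. High and low columns occurred on both diets, and the log2 fold change was 0.03 (SE 0.31). Pmch, whose melanin-concentrating hormone promotes feeding, covered 44.7 to 57.4 CPM on chow and 40.00 to 56.9 CPM on HFD. Over the 25 feeding peptides tested, 17 had a higher and 8 a lower mean on HFD, with a median log2 fold change of 0.12 against 0.0017 over all genes. The 18 hypothalamus markers outside the rule, some of which are on both lists, had 17 higher means and a median of 0.15. In the other columns of the same mice the medians were 0.02 for the peptides and -0.02 for the markers.

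**Figure D3:**
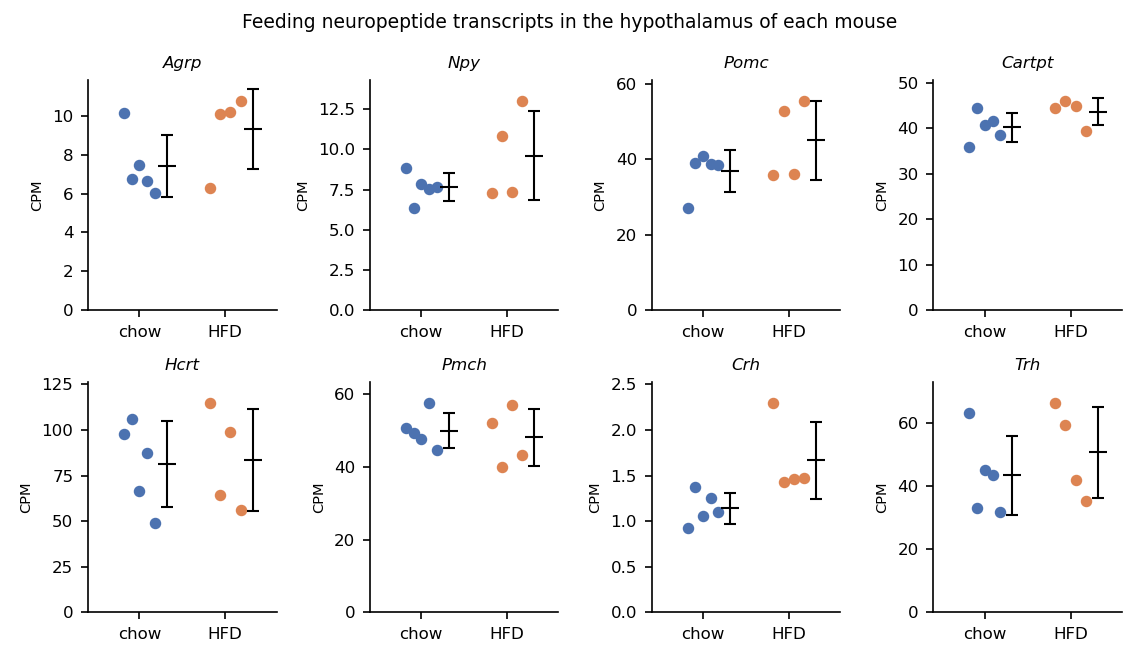
CPM of 8 feeding neuropeptides in the hypothalamus of each of 5 chow (blue) and 4 HFD (orange) mice. Points are mice, horizontal marks with bars are the mean and SD, and each vertical axis starts at 0. The diets overlap in 7 of the 8 genes, and in Crh the HFD columns lie above the chow columns.

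Receptors for appetite signals were measured more tightly. Lepr, the leptin receptor, was at 13.01, 15.5, 18.7, 12.9 and 17.6 CPM on chow and 15.2, 15.9, 15.4 and 15.9 CPM on HFD, with means of 15.6 ± 2.63 CPM (SD, n = 5) and 15.6 ± 0.339 CPM (SD, n = 4). The 95% interval of the ratio of HFD to chow was 0.797 to 1.25. For Insr, the insulin receptor, that interval was 0.950 to 1.06, the narrowest of the receptors named here. Glp1r, the receptor of the gut hormone GLP-1, was at 22.7, 20.9, 21.4, 22.7 and 19.4 CPM on chow and 23.3, 28.7, 26.1 and 24.6 CPM on HFD. The groups did not overlap, and HFD mouse 14 was nearest to the chow columns (log2 fold change 0.26, SE 0.12, edgeR p = 0.0359). They overlapped once mice 5 and 16 were added, at 19.4 to 24.2 CPM on chow and 22.2 to 28.7 CPM on HFD. Nmur2, a receptor of neuromedin U, had lower values on HFD, at 3.69 to 4.96 CPM against 4.89 to 6.50 CPM, and so had the cannabinoid receptor gene Cnr1, at 141 to 153 against 147 to 163 CPM. Both overlapped between diets. The melanocortin receptor gene Mc4r was at 2.12 to 3.50 CPM on chow and 2.90 to 3.31 CPM on HFD, and the ghrelin receptor gene Ghsr at 6.79 to 9.69 and 8.23 to 10.2 CPM. Of 30 appetite receptors tested, 3 had an unadjusted p under 0.05, 1 higher and 2 lower on HFD, against 3.76% of all genes. The median log2 fold change of the 30 was 0.00336.

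Downstream of leptin and insulin, Stat5a was at 6.02, 6.01, 6.94, 7.14 and 7.05 CPM on chow and 6.70, 9.23, 7.85 and 7.74 CPM on HFD. HFD mice 15, 17 and 18 exceeded the chow columns (log2 fold change 0.26, SE 0.11, edgeR p = 0.0282). Igfbp2, a binding protein of insulin-like growth factors, was at 5.04, 4.46, 11.3, 4.16 and 12.9 CPM on chow and 2.42, 3.69, 6.06 and 3.87 CPM on HFD. Chow mice 3 and 6 were more than 2-fold above the other chow mice, and HFD mouse 17 exceeded those other 3 while the remaining HFD columns lay below them (log2 fold change -0.90, SE 0.38). The same 2 chow columns were the highest of the 9 for the fibroblast genes Dcn, Ogn and Aldh1a2, and the part of these cells in the Igfbp2 values was not tested. Socs3, a feedback inhibitor that leptin induces, ranged over 2.96 to 3.63 CPM on chow and 2.81 to 4.17 CPM on HFD. The list of 24 genes of leptin and insulin signalling had 19 higher and 5 lower means on HFD and a median of 0.03. In 2 of the 24 (Stat5a and Igfbp2) the unadjusted p was under 0.05, against 3.76% of all genes.

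Genes of fatty acid use gave values close to those on chow. Pdk4, an inhibitor of glucose oxidation that responds to fatty acids in many tissues, was at 7.77, 8.69, 8.54, 7.44 and 7.29 CPM on chow and 6.51, 7.65, 6.64 and 8.38 CPM on HFD. HFD mice 14 and 17 lay below the chow range and the other 2 within it. Cpt1a, which admits fatty acids to mitochondria, gave 32.4 to 40.4 CPM on chow and 33.8 to 38.95 CPM on HFD, and the 95% interval of its ratio was 0.866 to 1.08. Bdh1, an enzyme of ketone metabolism, had the lowest p of 34 genes in this list (0.16, SE 0.08, edgeR p = 0.0465), and the beta-oxidation genes Acadvl and Hadha followed at 0.11 and 0.09. The 34 genes had a median log2 fold change of 0.07.

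Genes of sterol and fatty acid synthesis had mostly lower means on HFD, by small amounts. Of 28 genes, 24 had a lower mean on HFD, with a median log2 fold change of -0.05 and a range of -0.20 to 0.06. An unadjusted p under 0.05 was found for 1 of the 28, against 3.76% of all genes. That gene was Insig1, which holds back sterol synthesis when sterols are plentiful. Chow columns held 90.2, 91.5, 93.95, 108 and 106 CPM of it and HFD columns 85.1, 92.03, 79.7 and 82.5 CPM. HFD mouse 15 lay within the chow range and the other 3 below it (log2 fold change -0.20, SE 0.08, edgeR p = 0.0147). Lanosterol synthase Lss (-0.14) and farnesyl diphosphate synthase Fdps (-0.14) came next. In the other columns of the same mice the list had a median of -0.08.

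Heat shock proteins had the most members with a low unadjusted p. These are chaperones that hold and refold other proteins in the cytosol and mitochondria. Of 18 tested, 5 had an unadjusted p under 0.05 and all 5 were higher on HFD, where 1.87% of all genes were, and 0 passed the adjusted test. Besides Fkbp4, they were Ahsa1, Hsp90aa1, Hsph1 and Hsp90ab1. The list was drawn up with earlier results of these data known, and its genes are co-regulated, so the count is a description. Hsp90aa1, the inducible Hsp90, was at 389.5, 442, 428, 414 and 377 CPM on chow and 453, 467, 409 and 471 CPM on HFD. HFD mice 14, 15 and 18 lay above all chow columns and HFD mouse 17 among them (log2 fold change 0.13, SE 0.05, edgeR p = 0.0189). Ahsa1, which activates the ATPase of Hsp90, gave 51.4, 55.4, 56.8, 51.1 and 48.04 CPM on chow and 55.8, 56.8, 58.3 and 65.3 CPM on HFD, with a log2 fold change of 0.16 (SE 0.06). Hsph1, a nucleotide exchange factor of Hsp70, was at 228 to 275 CPM on chow and 247 to 341 CPM on HFD, and the constitutive Hsp90ab1 at 842 to 930.4 and 869 to 1021 CPM. In Hsph1 and Hsp90ab1, HFD mouse 17 was again the lowest HFD column. These values of Hsph1, Hsp90ab1 and the next pair of genes were chosen for naming after they had been seen. The strongly inducible Hspa1a and Hspa1b were low in both groups, at 0.833 to 1.93 and 1.49 to 2.96 CPM on chow and 1.55 to 2.39 and 1.98 to 2.89 CPM on HFD. Over the list, 14 genes were higher and 4 lower, with a median log2 fold change of 0.12 in the hypothalamus and 0.09 in the other columns of the same mice.

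ER chaperones showed values of the same size. Hspa5, the main Hsp70 of the ER, was at 270.4, 312, 320.1, 259.5 and 245 CPM on chow and 324, 333, 287 and 328 CPM on HFD. Chow mice 2 and 3 lay among the HFD columns, and the log2 fold change was 0.17 (SE 0.11, edgeR p = 0.114). Creld2, which is induced by ER stress, was the 1 gene of 22 with an unadjusted p under 0.05, against 3.76% of all genes. It was at 9.36, 11.3, 12.6, 11.9 and 9.48 CPM on chow and 14.9, 11.6, 12.6 and 13.7 CPM on HFD. Pdia4 and Calr, a disulfide isomerase and a lectin chaperone, had log2 fold changes of 0.18 and 0.11. In all, 18 of the 22 genes were higher on HFD, with a median of 0.11 in the hypothalamus and 0.09 in the other columns.

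**Figure D4:**
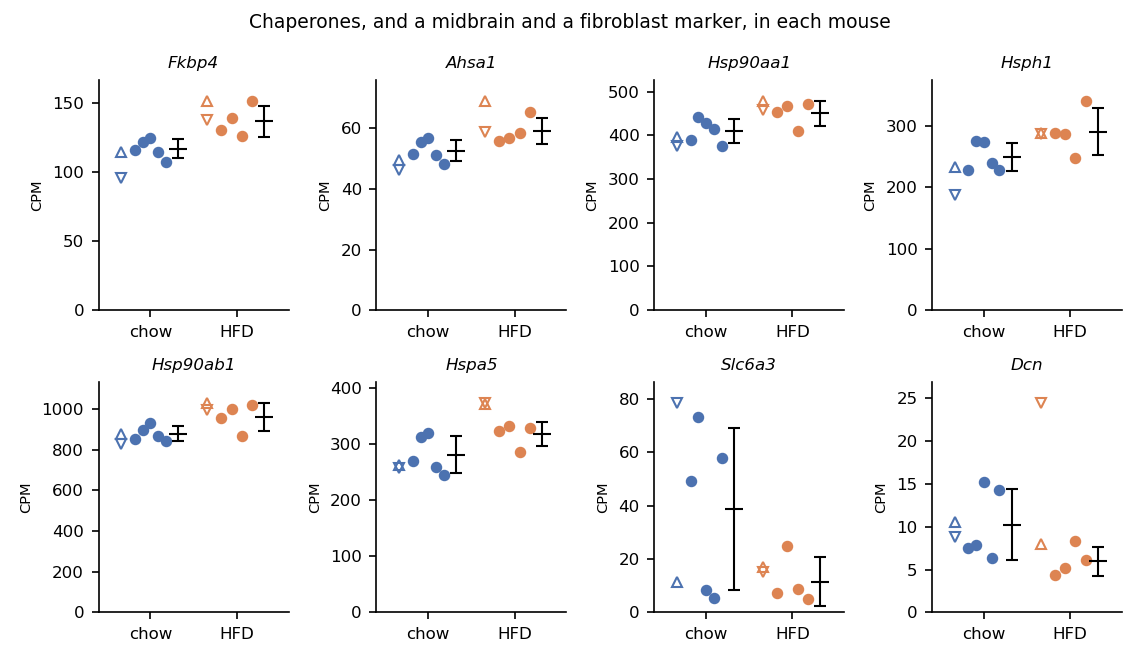
CPM of 6 chaperone genes, the midbrain marker Slc6a3 and the fibroblast marker Dcn in the hypothalamus of each mouse. Filled points are the 5 chow (blue) and 4 HFD (orange) columns of the comparison with mean and SD, and open triangles are the paired columns of chow mouse 5 and HFD mouse 16 (upward, the column of higher marker mean). Fkbp4 is higher in every HFD column than in every chow column, and Slc6a3 is at 49.4 CPM or more in 3 of the 5 chow columns and at 25.0 CPM or less in the HFD columns.

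Of 25 inflammatory genes on the list, 17 had enough counts to be tested, and the cytokine genes Tnf, Il6, Il1b and Ccl2 did not. Relb, a subunit of NF-kappaB, was the 1 tested gene with an unadjusted p under 0.05, against 3.76% of all genes. It was at 4.12, 4.53, 3.95, 4.82 and 4.70 CPM on chow and 3.35, 3.64, 3.57 and 2.75 CPM on HFD. All HFD columns were below all chow columns (log2 fold change -0.40, SE 0.13, edgeR p = 0.00622). With mice 5 and 16 added the ranges met, at 3.42 to 4.82 CPM on chow and 2.75 to 3.76 CPM on HFD. Nfkbia, the NF-kappaB inhibitor that NF-kappaB itself induces, was at 8.64 to 13.01 CPM on chow and 9.89 to 12.4 CPM on HFD. Ptgs2, the inducible cyclooxygenase, gave 0.952 to 1.90 and 0.475 to 1.34 CPM, and Birc3, another NF-kappaB target, 2.56 to 4.31 and 2.36 to 3.70 CPM.

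Genes that follow neuronal activity varied more between mice than between diets. Fos was at 5.71, 16.6, 6.70, 14.2 and 14.7 CPM on chow and at 17.4, 4.86, 5.81 and 10.5 CPM on HFD, and the highest column of all was an HFD column (log2 fold change -0.27, SE 0.42). Fosl2 (0.24), Nr4a2 (-0.29) and Fosb (-0.47) had the lowest p of 18 immediate early genes, of which 13 had a lower mean on HFD, with a median of -0.17 and 0 at an unadjusted p under 0.05. The 17 clock genes were the tightest list, with log2 fold changes from -0.11 to 0.04 and 0 at an unadjusted p under 0.05. Per1, a clock gene that also answers light and glucocorticoids, was at 55.9 to 73.5 CPM on chow and 52.1 to 70.1 CPM on HFD.

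Fkbp5, a glucocorticoid target that restrains the glucocorticoid receptor, was at 25.1, 25.02, 28.6, 26.4 and 26.3 CPM on chow and at 27.97, 32.3, 32.9 and 35.8 CPM on HFD. Only HFD mouse 14 overlapped the chow columns (log2 fold change 0.29, SE 0.14, edgeR p = 0.0576). The next glucocorticoid-responsive genes were Zbtb16 (0.27) and Tsc22d3 (0.15), and 12 of 18 genes of this list were higher on HFD, with a median of 0.05. In the fasted mice, which share the chow columns as their control, the same list had a median of 0.40, with 0 genes called. The fasted columns include those of mice 10 and 12, which were low in hypothalamus genes. Fasted mouse 11 stood above the other fasted mice for Fkbp5 (50.06 CPM against 25.5 to 31.5) and Zbtb16 (60.4 against 23.1 to 36.0). Glucose sensing and uptake genes had a median of 0.02 over 20 genes, with 0 at an unadjusted p under 0.05. G6pc3, a glucose-6-phosphatase, and Slc2a1 and Slc2a4, which transport glucose, had log2 fold changes of 0.08, 0.11 and -0.39. Thyroid hormone genes had a median of 0.07 over 9 genes, led by the thyroid-responsive corepressor Hr (0.26), and 0 had an unadjusted p under 0.05. Slco1c1, a transporter of thyroid hormone, and Dio2, which activates it, stood at -0.11 and -0.14.

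**Figure D5:**
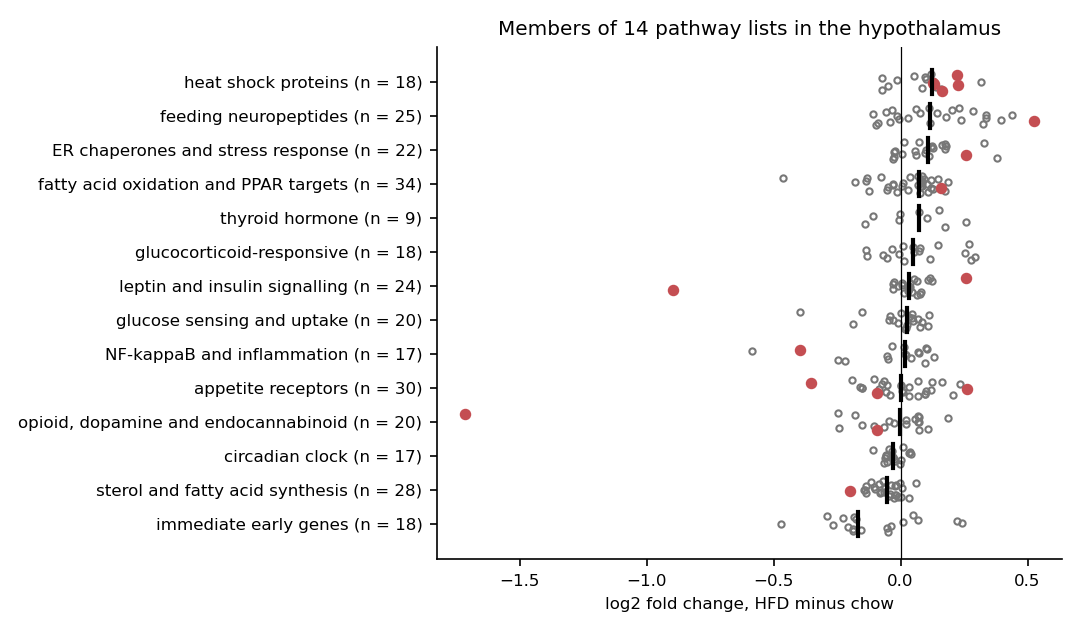
The log2 fold change (HFD minus chow) of each tested member of 14 pathway lists in the hypothalamus, with the number of members beside each name. Red points have an unadjusted edgeR p under 0.05, grey circles do not, and black bars are medians. No member passed the adjusted test, and the 5 red heat shock genes all lie to the right of 0.

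Over the 14 lists together, 16 of 294 different genes (5.44%) had an unadjusted p under 0.05, 10 of them higher and 6 lower on HFD, against 3.76% of all genes. In 5 genes (1.70%) the groups did not overlap, against 2.05% of all genes. Among 20 opioid, dopamine and endocannabinoid genes the median was -0.00161, and Slc6a3 and Cnr1 had an unadjusted p under 0.05, both lower on HFD. Daglb, an enzyme of endocannabinoid synthesis, gave 32.1 to 34.3 CPM on chow and 34.9 to 37.9 CPM on HFD with no overlap.

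Slc6a3, the dopamine transporter, is made chiefly by midbrain dopamine neurons that border the hypothalamus, and it split the chow columns. It was at 49.4, 73.02, 8.30, 5.29 and 57.8 CPM on chow and 7.13, 24.96, 8.80 and 5.21 CPM on HFD. Chow mice 1, 2 and 6 were high and chow mice 3 and 4 as low as the HFD columns, so the diets overlapped (log2 fold change -1.71, SE 0.76, edgeR p = 0.0355). The rounds disagreed, at -3.06, 1.90 and -3.08. The 9 midbrain markers, of which 6 were tested and all 6 had a lower mean on HFD, had a summed level of 8.71 to 83.6 CPM on chow and 9.40 to 27.9 CPM on HFD (exact permutation p = 0.191). En1, a midbrain transcription factor, was at 0 in HFD mouse 14 and at 3.16 CPM in chow mouse 2. With this level as a term in the fit, edgeR still called 0 genes. The 10 fibroblast markers all had a lower mean on HFD, with a median log2 fold change of -0.62. In 2 of them (Dcn and Lum) the unadjusted edgeR p was under 0.05, against 3.76% of all genes. The summed level of the 10 was 54.2 to 150.3 CPM on chow and 48.9 to 94.9 CPM on HFD. The difference in the collagen gene Col6a4 above had the same sign, and the part of these cells in it was not tested.

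The difference between HFD and chow was then set against that in the other columns of the same mice, which come from the other brain regions. Chow mouse 4 and fasted mice 10, 11 and 12 had 4 rather than 5 columns with enough counts. The regions in their mean may therefore differ from those of the other mice. limma on the difference per mouse between the hypothalamus and the mean of the other columns called 0 of 23272 genes (0%), with a lowest adjusted p above 0.999, and 842 genes (3.62%) had an unadjusted p under 0.05. No gene was thus shown to respond differently in the hypothalamus. Fkbp4 had a log2 fold change of 0.23 in the hypothalamus and 0.02 in the other columns, a difference of 0.21 (95% interval 0.02 to 0.39, unadjusted limma p = 0.0352). For Fkbp5 the values were 0.29 and 0.36, for Hsph1 0.22 and 0.26, for Insig1 -0.20 and -0.22, and for Hspa5 0.17 and 0.19, so the other regions had values of the same sign and like size. Hr had the lowest p of the named genes in this test, at 0.26 in the hypothalamus and -0.42 elsewhere (unadjusted limma p = 0.000430, adjusted p above 0.999). Of the 10 genes of lowest p in each direction, Hibadh (-0.01), Omg (0.0048), Zfp33b (0.014), Nrg3os (0.13) and Pld4 (0.14) had the other sign in the other columns. The rest had the same sign there, among them Xlr3b (-1.69), Slc13a1 (-0.69), Mageh1 (0.17) and Mt3 (0.16).

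Chow mouse 5 and HFD mouse 16 add a further mouse to each diet, with the limit that each has 2 candidate columns. The hypothalamus was taken in one piece, so 1 column of each pair may come from another mouse of unknown diet. With the column of higher marker mean, edgeR called 0 genes, with 1601 at an unadjusted p under 0.05, and 0 again when the fit held only the chow and HFD columns (2085 at an unadjusted p under 0.05, lowest adjusted p 0.235). DESeq2, which the study used, called 18 of 32671 genes (0.0551%) on these 11 columns, 14 higher and 4 lower on HFD, with log2 fold changes between 0.15 and 0.60 in size. With the lower columns in place of the higher ones it called 3 (0.00913%), of which 2 were among the 18 and the other was Col6a4, and with both columns of each mouse added up it called 24 (0.0720%), of which 14 were. DESeq2 called 0 genes without mice 5 and 16, and 0 with them when the fasted columns were in the fit. The calls thus rest on those mice, on the tool and on the samples in the fit, and this setting was chosen after the data had been seen.

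The 18 genes are named here after their values were seen. Among them, Cited1 was called with either column. It encodes a transcriptional coactivator and lies on chrX:101290985-101295803. Chow columns held 11.5, 9.45, 10.9, 11.1 and 9.17 CPM and HFD columns 13.4, 16.3, 12.2 and 19.4 CPM, while the 2 columns were at 12.2 and 10.3 CPM in chow mouse 5 and at 19.7 and 13.8 CPM in HFD mouse 16. HFD mouse 17 was just above the higher column of chow mouse 5, and all other HFD columns were clearly above chow (log2 fold change 0.60, SE 0.12, DESeq2 adjusted p = 0.00444, edgeR adjusted p = 0.235 on the same columns). The other gene called with either column was the long noncoding RNA E230029C05Rik, at -0.38 (SE 0.08). Fkbp4 was called with the higher columns and with the sums (DESeq2 adjusted p = 0.00887 and 0.00397) but not with the lower ones (adjusted p = 0.180). All Fkbp4 columns under HFD mice, both of mouse 16 included, lay between 126.6 and 151.7 CPM. Those under chow mice, both of mouse 5 included, lay between 96.0 and 124.8 CPM. Since 1 column of each pair may come from another mouse, its diet is uncertain. For Lars2, HFD mouse 16 held 61.1 CPM in one column and 39.9 CPM in the other, and its DESeq2 adjusted p went from 0.00539 to 0.999.

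The remaining genes higher on HFD in that DESeq2 fit were Hyou1 and Sdf2, which act in protein folding in the ER, Emc10, a part of the complex that inserts membrane proteins, Acot7, a brain acyl-CoA thioesterase, Htra1, a serine protease, Wsb2, Pycr3 of proline synthesis, Mt3, Mageh1, Ndufa2 and the small RNA Scarna6. With the higher columns, Hyou1 was at 226.5 to 246.3 CPM on chow and at 244.5 to 270.7 CPM on HFD (log2 fold change 0.15, DESeq2 adjusted p = 0.0420). Besides E230029C05Rik, the lower ones were Omg (-0.18) and the predicted transcripts Gm42993 (-0.38) and Gm26871 (-0.22). In edgeR on the same 11 columns, the adjusted p of the 18 genes was 0.235 or more.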

How the data were processed

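Bulk RNA was sequenced from 5 brain regions of 18 mice of the 16 h study, with 6 mice per diet. Per the labels and the methods of the study, RNA was depleted of ribosomal RNA, libraries were demultiplexed with bcl2fastq 2.20.0, and reads were aligned to GRCm39 and counted per gene with STAR 2.7.3a. The values are raw read counts per gene as deposited by the authors, with no filter and no pooling. The library kit was directional per the methods of the study, but the annotation release and the strand of counting are not given in the sources used here. Of 185 columns, 95 belong to other mice and were not used, and gene symbols were found for 98.8% of 57010 gene identifiers.

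Diet came from the labels. Region came from the marker rule, and members, gene lists and tests were chosen with earlier results of these data known. Diet was tested with the quasi-likelihood test of edgeR 4.0.16 (R 4.3.3), after filterByExpr and TMM scaling, with 3 diets in 1 fit, and genes were called at an adjusted p under 0.05. The difference from the other columns was tested with limma 3.58.1 on log2 CPM computed from the deposited counts with a prior count of 2. DESeq2 1.42.0, limma voom, sva 3.50.0, other size factors and filters, terms for round and clock time, and samples left out were alternatives, and the scripts were tested on simulated data. For single measures, the exact permutation test over mice was two-sided. The design had assumed 6 mice against 6, and 3 mice gave no usable column. Intervals and p-values cover the spread between mice, of which cage mates share food and handling.

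The genes named were the 10 of lowest p in each direction whose mean log2 CPM was at least 0 (no gene was called), the 3 of lowest p in each of 14 pathway lists, and a fixed set of feeding, stress and lipid genes. Of the 79 genes named by this rule, 55 overlap another annotated gene, 49 of them one on the opposite strand.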

Additional observations from a re-analysis of the deposited data

Results flagged for a closer look

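In 206 groups of 4 or 5 mice (the named genes and the library measures in each diet), 13 held 1 mouse that stood apart by Dixon's test at the 95% level, or 6.31%, where chance gives about 1 in 20. HFD mouse 14 accounted for 6 of them. It was low against the other HFD mice for Mt3 (112 CPM against 129 to 132.5), Agrp (6.26 against 10.1 to 10.8) and the immediate early gene Nr4a2 (13.9 against 20.7 to 21.6). It was high for Crh (2.29 CPM against 1.43 to 1.48), Primpol (6.01 against 4.70 to 4.86) and Xlr3b (1.61 against 0.141 to 0.319). This mouse was the 1 HFD mouse of the first round, since its cage mate, mouse 13, gave no column, so the mouse and the round cannot be told apart.

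Among chow mice, mouse 6 was low for Mt3 (100.5 CPM against 109.9 to 113) and Daglb (32.1 against 34.1 to 34.3) and high for Hadha (71.7 against 66.02 to 67.6). Chow mouse 1 was low for Pomc (27.2 CPM against 38.6 to 41.0), high for Nrg3os (15.1 against 13.1 to 13.6) and high for the summed level of 9 genes of the suprachiasmatic nucleus (481.5 CPM against 406 to 427). Chow mouse 4 was high for Grp, a peptide of that nucleus (2.68 CPM against 1.57 to 1.85).

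Outside the comparison, 4 columns were high in the 6 hypothalamus markers. Their marker means were 4.76 and 4.44 in chow mouse 5 and 4.83 and 4.35 in HFD mouse 16, against 0.0752 to 0.396 in the other columns of the mice used. Across genes, Spearman's correlation between the paired columns was 0.989 in mouse 5 and 0.986 in mouse 16, and genes are not independent replicates. Whether 1 column of each pair comes from a different mouse was not tested.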

How the results depend on the processing

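The count of 0 genes between HFD and chow held in 31 of 34 alternative settings, among them DESeq2, limma voom, 2 other normalizations, 2 other filters, terms for round, clock time, a surrogate variable or the midbrain marker level, cage as a random effect, and cage mates added up. Leaving out each mouse gave 0 to 0 genes, with 683 to 1050 genes at an unadjusted edgeR p under 0.05. Over all 34 alternatives and the tools they used, 633 (of 17070 tested) to 2143 (of 32671 tested) genes had an unadjusted p under 0.05. The 3 exceptions were DESeq2 fits of the chow and HFD columns alone with chow mouse 5 and HFD mouse 16 added. They called 18 genes with the higher columns, 3 with the lower columns and 24 with both columns added up, and these settings were chosen after the data had been seen. The test of the difference from the other columns gave 0 genes in all 14 alternatives. Of 2683 values of named genes, 60 had the other sign, in 11 genes, 2628 moved by less than 1 SD between mice, and 13 passed the adjusted threshold, all of them with mice 5 and 16 added. DESeq2 size factors shifted the median of all genes by -0.0026. Leaving out mouse 13 could not be run, because it gave no column. No paired analysis was possible because the diets share no replicate numbers, but both diets occur in each round of cages, and the fit with round as a term called 0 genes. The 95% interval lay within a 1.5-fold change for 70.9% of genes, and for the others it reached past that size.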

Other observations

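Vip, a peptide of the suprachiasmatic nucleus, the light-entrained clock at the front of the hypothalamus, varied widely between mice. It was at 7.36, 1.13, 0.905, 6.25 and 4.00 CPM on chow and 4.96, 13.1, 1.34 and 5.77 CPM on HFD, a range of over 10-fold within the 9 columns and with wide overlap of the diets. It was named after its values were seen. The 9 genes of that nucleus had a median log2 fold change of 0.22, and 0 had an unadjusted edgeR p under 0.05. The arcuate markers, 8 of them tested, had a summed level of 108 to 126.5 CPM on chow and 109 to 156 CPM on HFD, and their median log2 fold change was 0.28.

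Glial markers lay near their chow levels. Of 14 oligodendrocyte genes, 12 had a lower mean on HFD. Their list had a median log2 fold change of -0.06 in the hypothalamus and -0.13 in the other columns of the same mice. In 1 of the 14 the unadjusted edgeR p was under 0.05, against 3.76% of all genes. The 10 astrocyte genes had a median of 0.00550 and the 14 microglia genes one of -0.02.

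In the fasted mice, edgeR called 0 genes against the same chow columns, and the lowest adjusted p was 0.165. The fasted columns of mice 12 and 10 were low in the 18 further hypothalamus genes, at 1182 and 1915 CPM, against 2356 to 2684 CPM in the others. Fasted against chow was not tested without these mice, so the count of 0 does not show that fasting left the tissue unchanged.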
